A study of Mus musculus with 6 samples.

Results

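The genes described here are 6 brakes on T cell growth, Btg2, Tob1, Slfn2, Ddit4, Sesn2 and Tsc22d3. They were chosen by gene symbol, with earlier results of these data known, from the deposited table of 2387 genes, and all 6 were in it. The table compares CD4+ cells of 2 genotypes that had been polarized towards Tregs for 36 hours. SRC2fl/fl/Foxp3YFP-Cre mice gave 3 libraries and Foxp3YFP-Cre mice gave the other 3, all from different animals, and the cells are called floxed and control cells below. Both genotypes carry Foxp3YFP-Cre, which makes Cre recombinase in Foxp3-expressing cells only, so the floxed SRC2 gene (Ncoa2) is deleted as Foxp3 comes on. Naive CD4+ T cells from spleen had been cultured with TGFβ, antibodies to CD3 and CD28 for activation, and antibodies that block IL-4 and IFNγ. Littermates were young adults on the C57BL/6j background, matched for age and sex. The study asked how loss of the coactivator SRC2 alters the transcriptome of differentiating Tregs.

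A resting T cell stays small through active restraint. Antiproliferative proteins of the BTG/Tob family bring the CCR4-NOT deadenylase to mRNAs and shorten their poly(A) tails, Slfn2 keeps mouse T cells from leaving quiescence unprompted, and Ddit4 and Sesn2 hold back mTORC1, the kinase complex that turns on protein synthesis and growth when nutrients and growth signals are present. Tsc22d3, better known as GILZ, is induced by glucocorticoids and by FOXO factors and restrains NF-κB and AP-1. Several of these genes are also switched on by stress, so they mark DNA damage, amino acid shortage or hypoxia as well as rest.

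Each value below is the authors' mean CPM over the 3 libraries of a genotype, that is, reads of a gene scaled to a common library total. There is no value per library, so no SD is given and no test was run, and the depth of the libraries is unknown here. Every one of the 2387 rows had passed a P value threshold of 0.05 in the authors' own comparison, so that each listed gene differed between the genotypes by that rule, the 6 brakes included. A gene outside the table was counted neither as changed nor as unchanged. The log2 fold change is the log2 of the mean CPM in floxed cells divided by that in control cells. Its median over all listed genes was 0.33, and a value centred on that median is given where it matters. Because the listed genes had been selected by P value, that median is a point of reference and no estimate of a scaling error.

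Ncoa2 itself had 127 CPM in floxed cells and 164 CPM in control cells, and Foxp3 had 42.4 and 82.5 CPM. By flow cytometry, the paper found fewer Foxp3-positive cells in floxed cultures that had been polarized for longer. Foxp3-negative cells, in which no Cre is made, were present in the cultures as well. The methods mention no sorting after polarization, so how far fewer Tregs and less RNA per Treg each enter a value here cannot be told. Of 15 T cell markers, Cd28 alone was listed, with 179.6 and 256 CPM, and the others, Cd3e and Cd4 among them, were not analysed here. All listed markers of other cell types were higher in floxed cells, beside 69.2% higher among all listed genes. Cd74 had the smallest fold among them, a log2 fold change of 0.43, or 0.10 when centred on the median of all listed genes. The 4 of 18 B cell markers (Cd74, H2-Eb1, H2-Aa and H2-Ab1) summed to 104 CPM against 62.4 CPM, and the 1 of 22 myeloid markers (Lyz2) had 45.4 against 0.310 CPM. The 3 of 11 dendritic cell markers (Ccl22, Fscn1 and Zbtb46) summed to 55.9 against 11.0 CPM, and the 3 of 15 mast cell and basophil markers (Mcpt2, Mcpt1 and Il1rl1) to 22.1 against 1.85 CPM. None of 10 markers of CD8 and NK cells was listed, and Cd79a, Itgam, Itgax and Kit were not analysed here. The naive T cells had been isolated from spleen by negative selection, a step meant to remove such cells before culture. Leukocytes of these types can also express the brake genes, and their part in the values below was not tested.

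The brakes did not move as a block. Btg2, Tob1, Slfn2, Ddit4 and Sesn2 had higher means in floxed cells, whereas Tsc22d3 had a lower mean. Higher genes made up 69.2% of all listed genes and lower genes 30.8%, and because the 6 genes were chosen with this contrast in view, nothing is read from their count of 5 higher and 1 lower. By a fold of at least 1.4, Ddit4 and Btg2 were higher and Tsc22d3 was lower, beside 26.3% and 14.1% of all listed genes. By at least 1.2-fold, all 5 higher genes were higher and Tsc22d3 was lower, beside 62.1% and 27.1%. The median log2 fold change of the 6 genes was 0.39. The 6 means summed to 797 CPM in floxed cells and 555 CPM in control cells, and most of that difference came from Ddit4. Centred on the median of all listed genes, Ddit4 and Btg2 stayed well above 0 with 0.67 and 0.63, Tob1 and Slfn2 lay near 0 with 0.10 and 0.021, Sesn2 turned to -0.061, and Tsc22d3 lay still further below 0.

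**Figure D1:**
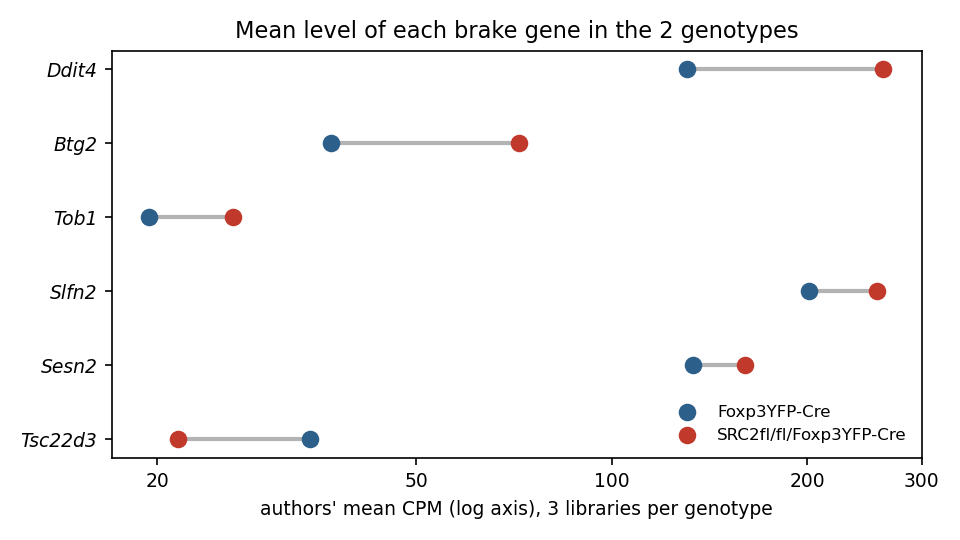
Mean CPM of each brake gene on a log axis, as the authors averaged 3 libraries per genotype, with blue points for Foxp3YFP-Cre and red points for SRC2fl/fl/Foxp3YFP-Cre cells. Ddit4 goes from 130.5 to 261 CPM and Btg2 from 37.1 to 71.9 CPM, while Tsc22d3 runs the other way, from 34.3 to 21.5 CPM; no spread between libraries can be drawn.

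**Figure D2:**
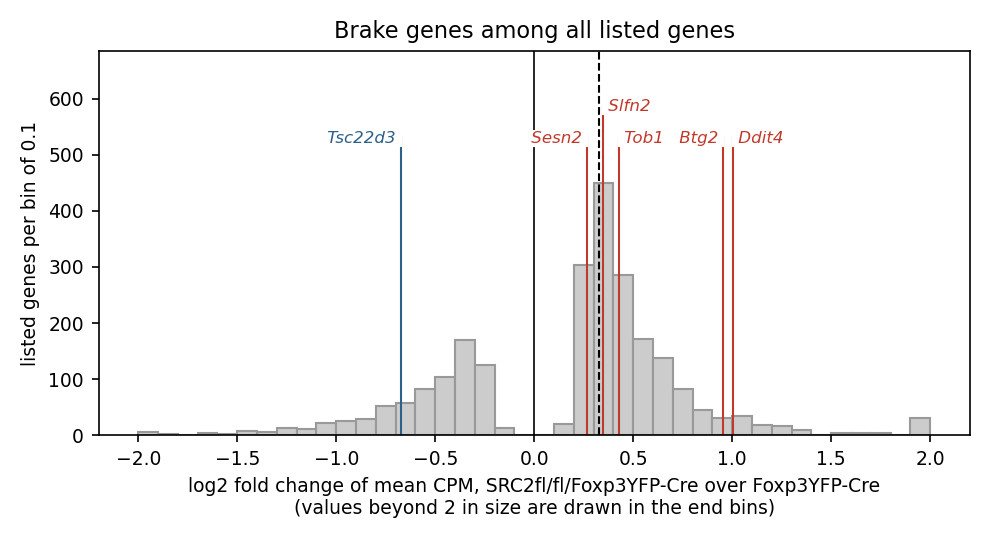
Histogram of the log2 fold changes of all 2387 listed genes in bins of 0.1, with a line for each brake gene (red higher, blue lower in SRC2fl/fl/Foxp3YFP-Cre cells) and a dashed line at the median of 0.33. Sesn2, Slfn2 and Tob1 lie in the peak of higher genes, with Sesn2 left of the median, and Btg2 and Ddit4 lie in its upper tail.

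Levels can be set side by side between genes only per length. Per kilobase of annotated exon, the order in control cells was Slfn2 with 121 CPM per kb, Ddit4 with 74.3, Sesn2 with 38.3, Btg2 with 13.5, Tob1 with 8.47 and Tsc22d3 with 7.91. The same order held in floxed cells, where Ddit4 with 149 CPM per kb came close to Slfn2 with 154, followed by Sesn2 with 46.1, Btg2 with 26.2, Tob1 with 11.4 and Tsc22d3 with 4.95. The gap between Ddit4 and Sesn2 therefore widened from 1.94-fold to 3.23-fold, although both restrain mTORC1. Whether neighbours in these orders differ beyond the spread between mice cannot be said from group means. Exon lengths are those of all annotated transcripts merged, which understates genes with several alternative first exons, such as Tsc22d3.

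Of the listed antiproliferative BTG/Tob genes, Btg2 had the largest fold, although Btg1 differed by more in CPM. On GRCm38, the build used throughout, Btg2 occupies 134075170 to 134079120 on chromosome 1, minus strand. Its mean was 71.9 CPM in floxed cells and 37.1 CPM in control cells, a ratio of 1.94 and a log2 fold change of 0.96. Only 8.29% of the 1652 higher genes had a larger fold. Btg2 is a deadenylase adaptor that also responds early to growth signals and to p53. Its promoter window (250 bases before to 50 after the RefSeq start, GRCm38.p6, chr1:134079106-134079405, minus strand) is shown because it holds a complete cAMP response element, with matches to the searched motifs in capitals.
Btg2 promoter: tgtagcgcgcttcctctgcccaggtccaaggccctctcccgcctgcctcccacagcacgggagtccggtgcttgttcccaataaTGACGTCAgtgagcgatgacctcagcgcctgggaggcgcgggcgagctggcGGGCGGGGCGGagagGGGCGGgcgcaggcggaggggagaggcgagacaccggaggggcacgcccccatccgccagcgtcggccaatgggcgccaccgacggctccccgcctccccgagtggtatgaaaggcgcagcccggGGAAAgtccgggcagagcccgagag

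Tob1, a related adaptor known to restrain T cell activation, had 26.1 CPM in floxed cells and 19.4 CPM in control cells. The log2 fold change of Tob1 was 0.43. A larger fold was seen in 46.1% of the higher genes, so that it stood in the middle of them. Tob1 lies on the plus strand of chromosome 11, from 94211454 to 94215495. Its promoter window (chr11:94211204-94211503, plus strand, GRCm38.p6), shown beside that of Btg2 as the relative that was higher by less, has a short cAMP element and a TATA box in capitals, along with GC boxes and a hypoxia core.
Tob1 promoter: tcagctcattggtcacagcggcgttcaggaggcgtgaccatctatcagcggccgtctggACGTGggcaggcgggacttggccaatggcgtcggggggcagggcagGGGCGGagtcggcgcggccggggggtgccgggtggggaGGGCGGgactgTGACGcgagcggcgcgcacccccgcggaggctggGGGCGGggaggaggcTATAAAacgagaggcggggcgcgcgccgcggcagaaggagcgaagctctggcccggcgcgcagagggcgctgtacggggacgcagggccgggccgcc

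Listed relatives of Btg2 and Tob1 went both ways. Tob2, the paralog of Tob1, had 91.4 CPM in floxed cells and 56.8 CPM in control cells, a log2 fold change of 0.69. Cnot4, a ubiquitin ligase whose yeast counterpart belongs to the CCR4-NOT complex, had 27.8 and 19.5 CPM, a log2 fold change of 0.52. Btg1, which shares the task of keeping T cells quiescent with Btg2 in the mouse, was lower instead, with 843 CPM in floxed cells and 1057 CPM in control cells and a log2 fold change of -0.33. Per kilobase, Btg1 was the most abundant of these family members in both genotypes, with 159.7 CPM per kb in floxed cells and 200.3 CPM per kb in control cells. In all, 5 of 21 genes of this family and its deadenylase were listed, 4 higher and 1 lower, near the 69.2% higher among all listed genes. Both nuclease pairs of the complex, Cnot6 with Cnot6l and Cnot7 with Cnot8, were not analysed here.

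Slfn2 was abundant and differed by a small fold. It lies on the plus strand of chromosome 11, from 83065112 to 83070678, 11.1 Mb from Tob1. Slfn2 had 256 CPM in floxed cells and 201 CPM in control cells, a ratio of 1.27 and a log2 fold change of 0.35, while 66.4% of the higher genes had a larger fold. By the difference in CPM it held rank 57 among the 1652 higher genes, because of its level. It is the Schlafen gene whose loss makes mouse T cells leave quiescence and die on activation. An antisense gene, Gm20234, overlaps Slfn2 on the other strand, and the counting is not stated to use strand.

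Of the listed Schlafen genes of the same cluster, 4 were higher and 1 was lower, near the 69.2% higher among all listed genes. The 5 listed of 10 span 264 kb in the order Slfn5, Slfn10-ps, Slfn2, Slfn1 and Slfn3. Slfn3 had a log2 fold change of 0.53, the pseudogene Slfn10-ps one of 0.45 and Slfn5 one of 0.41. Centred on the median of all listed genes, these were 0.21, 0.12 and 0.078, and Slfn1 had -0.89. Slfn1, the next listed gene after Slfn2 at a distance of 46.2 kb, had 23.1 CPM in floxed cells and 33.9 CPM in control cells, a log2 fold change of -0.56. These genes are close copies of each other, and the authors' expectation-maximization counting divides reads that fit several copies, so the values of single Schlafen genes are uncertain.

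**Figure D3:**
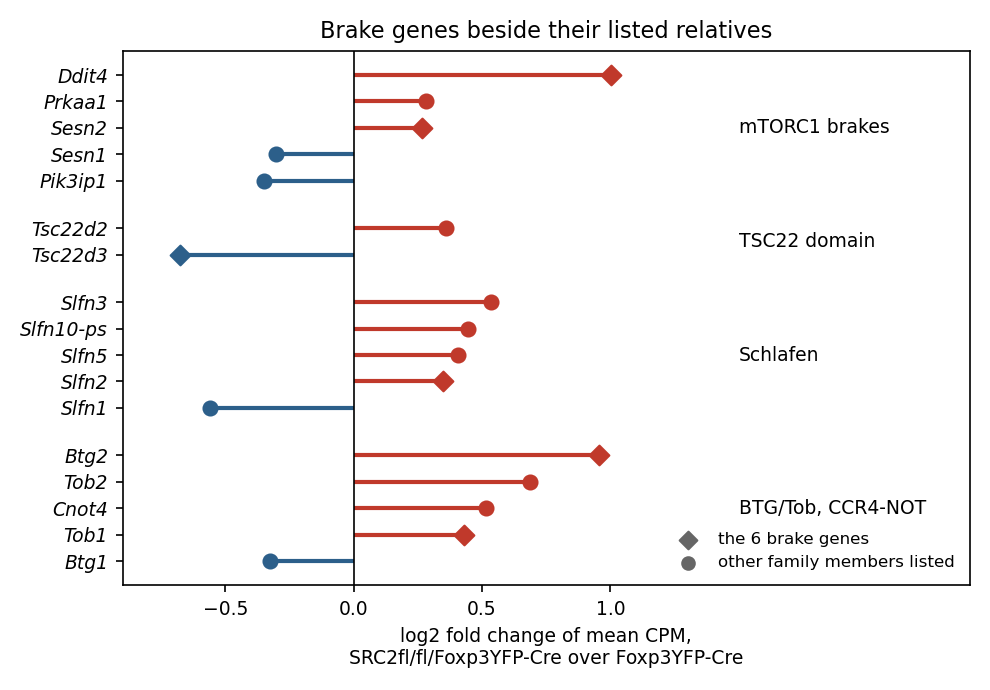
Log2 fold changes of mean CPM (SRC2fl/fl/Foxp3YFP-Cre over Foxp3YFP-Cre) for the brake genes (diamonds) and their listed relatives (circles), grouped by family, red for higher and blue for lower. Every family holds a gene that goes the other way, with Btg1 at -0.33, Slfn1 at -0.56, Tsc22d2 at 0.36 against Tsc22d3 at -0.68, and Sesn1 at -0.30, while Sesn2 and Prkaa1 fall just below 0 once centred on the median of all listed genes.

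Ddit4 had the largest difference of the 6 brakes. Ddit4, also called REDD1, releases the TSC complex to shut off mTORC1, and is induced by hypoxia, DNA damage, glucocorticoids and amino acid shortage. It lies on the minus strand of chromosome 10, from 59949669 to 59951834. Its mean was 261 CPM in floxed cells and 130.5 CPM in control cells, a difference of 131 CPM and a log2 fold change of 1.00. By that difference Ddit4 held rank 13 among the 1652 higher genes, and by fold 7.51% of them lay above it. Its promoter window (chr10:59951721-59952020, minus strand, GRCm38.p6) is shown as that of the brake with the largest difference. The capitals mark a GC box and the core letters bound by hypoxia-inducible factors.
Ddit4 promoter: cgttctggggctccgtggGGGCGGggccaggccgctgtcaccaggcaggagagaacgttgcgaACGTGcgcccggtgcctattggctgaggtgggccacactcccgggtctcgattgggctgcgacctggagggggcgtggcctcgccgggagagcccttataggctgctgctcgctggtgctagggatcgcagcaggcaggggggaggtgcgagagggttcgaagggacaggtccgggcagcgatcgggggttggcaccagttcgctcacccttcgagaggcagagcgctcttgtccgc

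Sesn2, the leucine sensor that restrains mTORC1 when amino acids run short, differed least by fold. It lies on the minus strand of chromosome 4, from 132492032 to 132510501, and had 160.3 CPM in floxed cells and 133 CPM in control cells. The log2 fold change was 0.27, and 88.4% of the higher genes had a larger fold. Centred on the median of all listed genes, Sesn2 was at -0.061, so its direction depends on the reference chosen. With both genotypes rescaled to the same sum of CPM it stayed above 0, at 0.18. A gene annotated as antisense, Gm12981, overlaps it on the same strand and can share its reads.

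The wider set of mTORC1 brakes showed no common direction. Of 27 genes, 5 were listed, 3 higher and 2 lower, beside 69.2% higher among all listed genes, and centred on the median of all listed genes 1 was higher and 4 were lower, with Ddit4 as the one left above. Sesn1, a paralog of Sesn2 that p53 and FOXO factors induce, had 34.9 CPM in floxed cells and 42.9 CPM in control cells, a log2 fold change of -0.30. Pik3ip1, an inhibitor of PI3K found on resting T cells, had one of -0.35. Prkaa1, a catalytic subunit of AMPK, had one of 0.28, which is -0.045 when centred. Tsc1, Tsc2, Deptor and Depdc5 were not analysed here.

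Genes that form or activate the mTOR complexes were also split. Of 31, a list that holds Rictor and Mapkap1 of mTORC2 as well, 6 were listed, 3 higher and 3 lower with Rictor among the lower, or 2 and 4 when centred, beside 69.2% higher and 30.8% lower among all listed genes. Fnip1, a partner of folliculin at the lysosome, had a log2 fold change of -0.50, Rictor one of -0.47, and Rragd, a Rag GTPase, one of -0.35. Tti1, which helps assemble the kinase, had one of 0.42 and Flcn, folliculin, one of 0.34. Of 16 genes downstream of mTORC1, 2 were listed, with -0.25 for Pdcd4, a brake on translation initiation, and 0.34 for Rps6, a ribosomal protein that the pathway phosphorylates. mTORC1 acts through phosphorylation, which was not measured.

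Tsc22d3 was the brake with a lower mean. It lies on the minus strand of the X chromosome, from 140539528 to 140600659, and spans 61.1 kb with 3 RefSeq start sites in the promoter table. Its mean was 21.5 CPM in floxed cells and 34.3 CPM in control cells, which left 62.6% of the control level, and the log2 fold change was -0.68. Of the 735 lower genes, 26.4% had a larger fold. Tsc22d2, a paralog, was higher, with 47.2 CPM in floxed cells and 36.8 CPM in control cells, a log2 fold change of 0.36, and the other 2 genes of this family of 4 were not analysed here. The values do not tell which start was used. The window of the start farthest upstream (chrX:140600473-140600772, minus strand, GRCm38.p6) is shown because it holds the core letters of a glucocorticoid receptor site, in capitals with a GC box.
Tsc22d3 promoter: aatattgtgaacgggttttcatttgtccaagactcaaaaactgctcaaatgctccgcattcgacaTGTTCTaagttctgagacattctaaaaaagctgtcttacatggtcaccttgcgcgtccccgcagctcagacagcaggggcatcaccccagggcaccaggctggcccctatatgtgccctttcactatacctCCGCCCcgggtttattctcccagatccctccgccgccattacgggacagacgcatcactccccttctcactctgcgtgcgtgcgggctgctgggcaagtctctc

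Tsc22d3 belongs to a list of FOXO targets, most of which were lower. Of 23 FOXO factors and genes that they are known to control in T cells, 17 were listed, 15 lower and 2 higher, beside 30.8% lower among all listed genes, and 12 were lower by at least 1.4-fold, beside 14.1%. The median log2 fold change was -0.59, against 0.33 for all listed genes. Irs2, an adaptor of insulin signaling, had one of -1.39, Klf2, a quiescence factor, one of -1.09, and S1pr1, the receptor for exit from lymph nodes, one of -1.09. Ccr7, a homing receptor, had one of -0.94, and Txnip, which limits glucose uptake, one of -0.83. Foxo1 had 243 CPM in floxed cells and 362 CPM in control cells, a log2 fold change of -0.58. These values are mRNA, and the paper reports no obvious fall of Foxo1 protein without SRC2 under Treg polarization. It also reports that forced Foxo1 did not rescue Treg differentiation in SRC2fl/fl/CD4Cre cells. By qPCR, the paper found lower Foxo1 mRNA in floxed cells and SRC2fl/fl/CD4Cre cells after polarization, with no obvious difference in naive floxed cells. The 2 higher members were Sesn2 and the factor Foxo3, whose log2 fold change of 0.26 is -0.071 when centred, so that 0 of the 17 were higher on that scale. Without Tsc22d3 and Sesn2, 14 of 15 were lower. The study selected Foxo1 on these samples, and the lists were written with earlier results of these data known, so these counts are no independent evidence of a direction.

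Btg2, Ddit4 and Sesn2 belong to the other large group, p53 and its targets. Of 24 genes, 12 were listed, 11 higher and 1 lower, beside 69.2% higher among all listed genes. Their median log2 fold change of 0.37 was near that of all listed genes, and centred on it 7 were higher and 5 lower. By at least 1.4-fold, 5 were higher and 0 lower, beside 26.3% and 14.1% of all listed genes. Besides Ddit4 and Btg2, these were Tigar, which lowers glycolytic flux, with a log2 fold change of 0.79, Cdkn1a, the cell cycle inhibitor p21, with 0.68, and Tnfrsf10b, a death receptor, with 0.56. Cdkn1a had 558 CPM in floxed cells and 349 CPM in control cells. Sesn1 was the lower member with -0.30. Sesn1 and Sesn2 belong to the FOXO list as well. Without the 3 brakes, 8 of 9 were higher, 3 of them by at least 1.4-fold, and the median was 0.37. The p53 list too was written with earlier results known, so its counts are no independent evidence of a direction. Trp53, the gene of p53, was not analysed here.

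**Figure D4:**
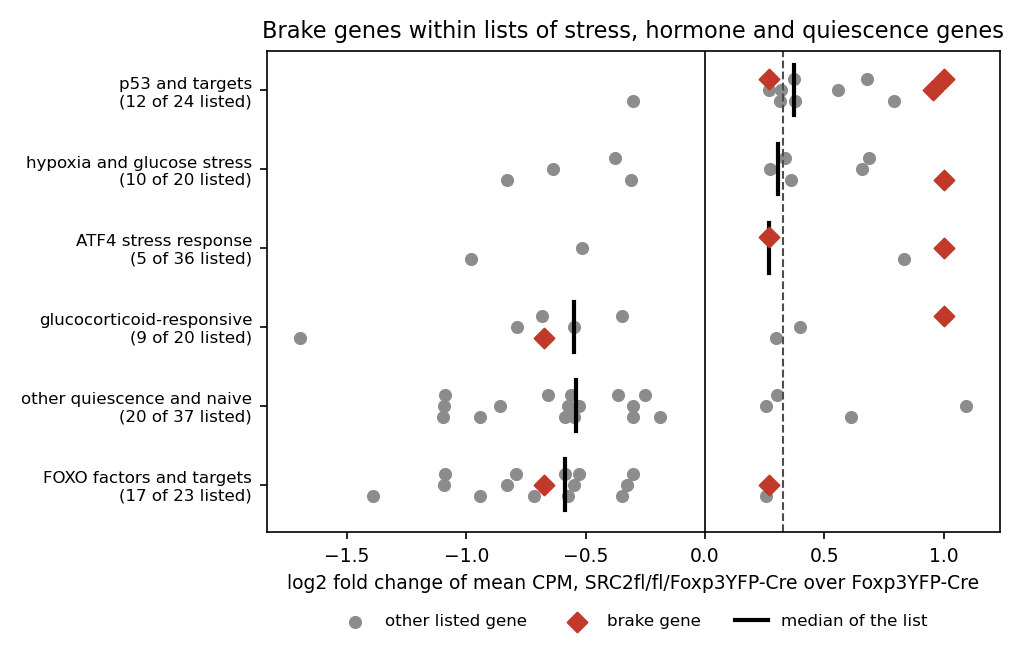
Log2 fold changes of mean CPM (SRC2fl/fl/Foxp3YFP-Cre over Foxp3YFP-Cre) for the listed genes of 6 lists, brake genes as red diamonds, others as grey points, with a bar at each list's median and a dashed line at the median of all listed genes, 0.33. The FOXO, quiescence and glucocorticoid lists have medians of -0.59, -0.54 and -0.55, and the p53 list one of 0.37, of which 7 of 12 genes lie above the dashed line.

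Ddit4 and Tsc22d3, both known as glucocorticoid-induced genes, pointed in opposite directions. Of 20 glucocorticoid-responsive genes, 9 were listed, 6 lower and 3 higher, or 7 and 2 when centred, beside 30.8% lower and 69.2% higher among all listed genes, and the median log2 fold change was -0.55. Cxcr4, a chemokine receptor, had 22.2 CPM in floxed cells and 71.9 CPM in control cells, a log2 fold change of -1.70. Sgk1, a kinase related to AKT, had one of -0.79 and Per1, a clock gene, one of -0.68. Tsc22d3, Il7r and Pik3ip1 among the lower genes are also in the FOXO list. Without Ddit4 and Tsc22d3, 5 of 7 were lower. The glucocorticoid list too was written with earlier results known, so its counts are no independent evidence of a direction. Fkbp5, Klf9 and the receptor gene Nr3c1 were not analysed here.

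Stress programs to which Ddit4 belongs went both ways. Of 36 genes of the ATF4 stress response, which holds Sesn2 as well, 5 were listed, 3 higher and 2 lower, or 2 and 3 when centred, beside 69.2% higher among all listed genes. Besides Ddit4 and Sesn2, Cebpg, a partner of ATF4, had a log2 fold change of 0.83, the amino acid transporter Slc38a2 one of -0.52, and Atf3, a stress-induced repressor, one of -0.98. Atf4, Ddit3, Chac1 and Trib3 were not analysed here. Of 20 genes of hypoxia and glucose stress, 10 were listed, 6 higher and 4 lower, again beside 69.2% higher, or 5 and 5 when centred, and the median was 0.30. Ak4, a mitochondrial adenylate kinase, had 0.69 and Ankrd37 had 0.66, whereas Txnip had -0.83, its relative Arrdc4 -0.64 and Hif1a, the oxygen-regulated factor itself, -0.38.

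Most other listed genes of quiescent and naive T cells were lower, whereas Btg2, Tob1 and Slfn2 were higher. Of 37 such genes other than the brakes, 20 were listed, 16 lower and 4 higher, or 18 and 2 when centred, beside 30.8% lower among all listed genes, and 11 were lower by at least 1.4-fold, beside 14.1%. Their median log2 fold change was -0.54. Klf4 had -1.10 and Klf6 -0.86, both Krüppel-like factors that restrain proliferation, and Zfp36l2, which binds AU-rich mRNAs for decay, had -0.66. Dusp2, a nuclear MAP kinase phosphatase, had 161 CPM in floxed cells and 75.2 CPM in control cells, a log2 fold change of 1.10, and was the largest of the 4 higher genes. Cdkn2d, an inhibitor of cyclin D kinases, had 0.61. Of the brakes set against this list, Btg2 was at 0.63 when centred, whereas Tob1 and Slfn2 lay near 0 with 0.10 and 0.021. Btg1, the relative of Btg2, was lower with -0.33 before centring. Some genes of the quiescence list are also in the FOXO list. The quiescence list too was written with earlier results known, so its counts are no independent evidence of a direction.

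Few genes of the cell cycle were listed, 4 of 36, with 3 higher and 1 lower beside 69.2% higher among all listed genes. Ccnd1, Cdc25a and Ccnd3, which drive entry into the cycle, had log2 fold changes of 0.94, 0.39 and 0.36, and Mki67, a marker of proliferating cells, had one of -0.34 with 277 CPM in floxed cells and 351 CPM in control cells. Ccnd1 was scarce, with 4.68 and 2.43 CPM. The Mki67 value is mRNA at a single time. By flow cytometry at an earlier and a later time, the paper found Ki-67 protein comparable between these genotypes. That held in Foxp3-positive and in Foxp3-negative cells.

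The genes nearest to each brake, by distance over the log2 mean CPM of the 2 genotypes, were Pura and Zbtb32 for Btg2, Mcfd2 and Exosc7 for Tob1, Nme2 and Tpi1 for Slfn2, Nr4a1 for Ddit4, Cnn2 and Foxo3 for Sesn2, and Arl4a and Cirbp for Tsc22d3. Sesn2 and Foxo3 were almost equal in both genotypes, at a distance of 0.011. The nearest genes of Ddit4 and Btg2 were farther off, Nr4a1 at 0.10 and Pura at 0.22. With 2 values per gene this says only that levels were alike.

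The promoter windows of the brakes shared few motifs. All 6 genes had a RefSeq window, 8 windows in all with the 3 of Tsc22d3, and 11 motifs were searched on both strands. The full cAMP response element, TGACGTCA, was in 1.79% of all 32851 windows and, among the brakes, in that of Btg2, starting at position -166 from the start site. Its short form, TGACG, which the full element contains, was in 20.8% of all windows and also in those of Tob1 and of Tsc22d3 at its start 2. The hypoxia core, ACGTG, was in 19.6% of all windows and in those of Ddit4 and Tob1. The glucocorticoid receptor core, TGTTCT, was in 19.0% of all windows and in that of Tsc22d3 at its start 3. The GC box, GGGCGG, was in 35.7% of all windows and in those of every brake but Slfn2, though not at start 2 of Tsc22d3. The TATA box, TATAAA, was in 13.6% and in that of Tob1, and the NFAT core, GGAAA, was in 61.3% and in those of Btg2, Slfn2 and Tsc22d3 at its start 1. The E-box CACGTG, which contains the hypoxia core, the ATF4 element TGATGNAAT, the FOXO site TGTTTAC and the NR4A site AAAGGTCA had no match in these windows and were in 7.15%, 0.965%, 3.65% and 1.51% of all windows. GC content was 75.3% for Tob1, 72.0% for Btg2 and 69.0% for Ddit4, above the median of 52.7% over all windows, and 49.7% for Slfn2. A match of letters is no measured binding.

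**Figure D5:**
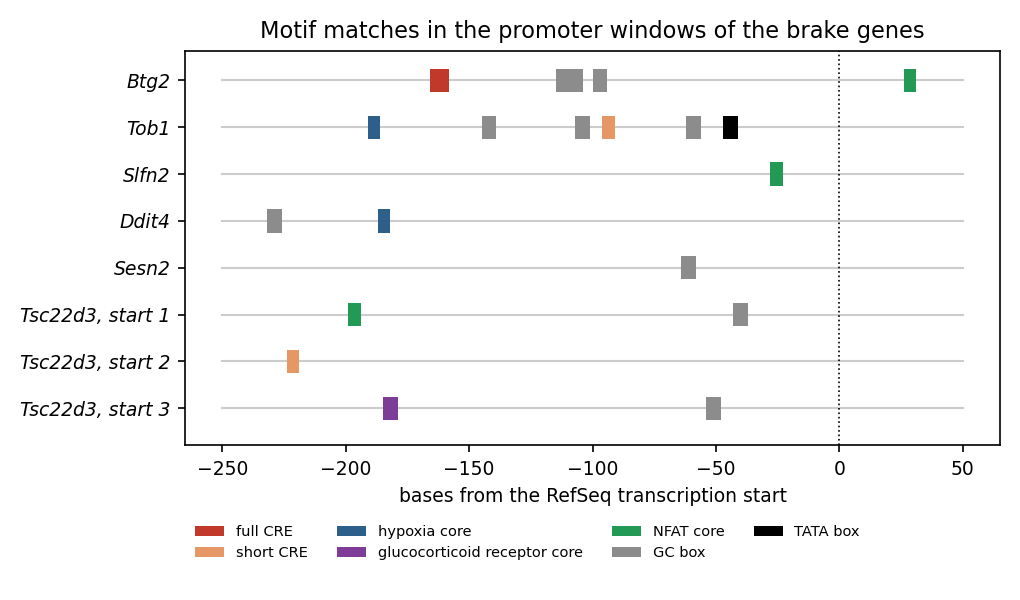
Matches to the searched motifs in the 8 promoter windows of the brake genes, drawn at their distance in bases from the RefSeq start (dotted line), each box as long as the motif. Btg2 alone has the full cAMP element, Ddit4 and Tob1 have the hypoxia core, and Tsc22d3 at its start 3 has the glucocorticoid receptor core; the short elements inside the full one of Btg2 are not drawn.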

How the data were processed

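RNA-seq was measured in 6 libraries of CD4+ cells, 3 per genotype. By the paper's account, alignment was to GRCm38, quantification by the Partek E/M algorithm (expectation-maximization), and the genotypes were compared with Partek GSA. Which aligner, annotation and software version were used is not stated in these sources. The deposited CPM values are group means that the authors made after adding a small constant. A further column, named total counts, is 3 times the 2 means added together in each of the 2387 rows (relative tolerance 1e-06), so it sums CPM and is not raw counts. The authors' P value column was read only to learn how rows had been selected, and all 2387 were below 0.05. Their adjusted p-values, ratios and fold changes, which hold the study's own comparison, were not used. CPM is a share of the library, so a few abundant genes can shift all others.

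No test was run. The members, the 19 other gene lists and the motifs were chosen with earlier results of these data known. Text names all members and all listed genes of their families, other cell type markers in full and up to 5 genes per other list, those of largest log2 fold change, plus the 2 nearest genes of each member, of which 1 is not reported here. Genes named as not analysed, and Foxo1, Foxo3, Hif1a, Klf6, Cdkn2d and Zfp36l2, which fall outside that rule, were chosen after the values were seen. Alternatives were offsets of 1 and 5 CPM, centring on the median, rescaling to equal sums and a minimum of 5 CPM. A planned comparison of protein sequences was not run. Positions and exon lengths are from GENCODE M21 (GRCm38), in which 2342 of 2387 symbols had one entry, and promoters from RefSeq (GRCm38.p6). Python 3.11.15, pandas 2.3.3, numpy 2.4.6 and matplotlib 3.10.9 were used, and the functions were tested on simulated data.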

Additional observations from a re-analysis of the deposited data

How the results depend on the processing

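No paired analysis was possible because the table gives 1 mean per genotype and no replicate, and for the same reason leaving out each library was not run. Centring on the median of all listed genes lowers each log2 fold change by 0.33. It turned the log2 fold change of Sesn2 to -0.061 and left the other 5 brakes on their side of 0. Among all listed genes it gave 1193 lower, 193 higher by at least 1.4-fold and 735 lower by at least 1.4-fold, in place of 735, 627 and 336. It gave 7 higher and 5 lower genes of the p53 list and 0 higher genes of the FOXO list. With 5 CPM added to both means, 280 genes were higher and 151 lower by at least 1.4-fold. With 1 or 5 CPM added, or with both genotypes rescaled to the same sum, a shift of -0.093, no brake changed direction and no ratio of means moved by a factor of 1.5, although rescaling took the log2 fold change of Sesn2 from 0.27 to 0.18. Of the other lists' counts of higher and lower genes, 3 of 34 moved by over 1.5 times when centred, and none did with 5 CPM added or a minimum of 5 CPM. Without depth or spread, a small difference such as that of Sesn2 cannot be judged against the error between mice.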
